A study of Mus musculus with 45 samples.

Results

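Cxcl9, Cxcl10 and Cxcl11 encode the chemokines that bind the receptor CXCR3. They were taken by name, as 3 of the 24421 genes in the deposited table, and followed in mouse macrophages given IL-4, IFN-γ or both. CXCR3 is carried mainly by activated T cells and natural killer (NK) cells, and macrophages release its ligands to draw such cells into inflamed tissue. IFN-γ signals through the kinases JAK1 and JAK2, and IRF1 and NF-κB are among the factors known to drive transcription of these genes. IL-4 signals through STAT6 and is known to oppose part of the IFN-γ response of macrophages.

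The cells were bone-marrow-derived macrophages of C57BL/6 mice, grown in L929-conditioned medium and used on day 7 of differentiation. They were left untreated or were given, for 2 h or 4 h, IL-4 at 10 ng/ml, IFN-γ at 100 ng/ml or both together. This makes 7 groups of 3 libraries. The labels give no time for the untreated group, so changes at 2 h and 4 h are set against the same 3 libraries. In those changes the cytokine and the time in culture cannot be told apart. The series has 45 samples in all; 24 from cells with short hairpin RNAs were not analysed here. Nothing in the labels says that replicates came from separate animals or cultures, so p-values reflect the spread among these libraries, part or all of which may be technical.

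The libraries held 28920801 to 80028327 reads, and 1 read was worth 0.0125 to 0.0346 CPM (a read count scaled to the total of its library). Rn45s, the ribosomal RNA precursor, took 43.2% and 15.7% of the reads in untreated replicates 2 and 3 and at most 3.21% in any other library. CPM below are therefore rescaled by the median ratio of each library to the average library. Macrophage markers fitted the label: Adgre1 (F4/80) ran from 1207 to 2032 CPM and Csf1r (the M-CSF receptor) from 2273 to 5897 CPM over the 21 libraries. The T cell receptor chains Cd3e, Cd3g and Cd3d did not exceed 0.0550, 0.0746 and 0.299 CPM, but Cd4 ran from 1.85 to 26.2 CPM and the summed T cell list (5 of 6 genes in the table) from 2.57 to 26.9. The summed neutrophil list (5 of 6 genes) ran from 44.8 to 232 CPM. The summed endothelial list (4 of 4) ran from 7.19 to 15.7 CPM in untreated cells, 13.1 to 35.0 under IFN-γ for 4 h and 7.85 to 13.4 under both cytokines for 4 h. The NK cell genes Ncr1 and Prf1 did not exceed 0.0283 and 0.0550 CPM. The summed NK cell list (5 of 5 genes in the table) ran from 0.416 to 0.787 CPM in untreated cells and from 16.3 to 28.2 CPM under IFN-γ for 4 h. Klrk1, which encodes NKG2D, gave nearly all of that sum (0.0236 to 28.1 CPM), and the part of these lists in the results below was not tested.

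The 3 genes lie side by side on the minus strand of chromosome 5 (GRCm38, GENCODE vM21). Cxcl9 (ENSMUSG00000029417.9) spans 92321347 to 92328079, Cxcl10 (ENSMUSG00000034855.13) 92346638 to 92348889 and Cxcl11 (ENSMUSG00000060183.6) 92359544 to 92365485, so that 44.1 kb holds all of them. Cxcl9 and Cxcl10 are annotated as protein-coding. Cxcl11 is annotated as a polymorphic pseudogene in GENCODE and a transcribed pseudogene in RefSeq: the C57BL/6 allele is known to carry a frameshift, so its RNA is measured here without a functional chemokine being made. Exons of Art3, on the opposite strand, share 133 bases with Cxcl10. Whether the counting used strand is not given in the sources used here. Art3 had 4 reads in the 3 untreated libraries and 66 in the 3 libraries of IFN-γ for 4 h. These counts do not show how reads from the shared bases were assigned, and their effect on Cxcl10 was not tested.

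The 250 bases before the start site are shown for the members found in the RefSeq promoter table (GRCm38.p6), Cxcl9 and Cxcl10. Cxcl11 was not matched. Both are written 5′ to 3′ on the gene's strand (minus), and capitals mark the motif matches found.
Cxcl9, chr5:92328080-92328329: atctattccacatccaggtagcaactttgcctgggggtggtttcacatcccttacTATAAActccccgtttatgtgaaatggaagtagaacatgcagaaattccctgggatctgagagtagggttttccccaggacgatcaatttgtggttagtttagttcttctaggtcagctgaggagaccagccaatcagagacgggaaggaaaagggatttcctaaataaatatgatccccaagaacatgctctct
Cxcl10, chr5:92348890-92349139: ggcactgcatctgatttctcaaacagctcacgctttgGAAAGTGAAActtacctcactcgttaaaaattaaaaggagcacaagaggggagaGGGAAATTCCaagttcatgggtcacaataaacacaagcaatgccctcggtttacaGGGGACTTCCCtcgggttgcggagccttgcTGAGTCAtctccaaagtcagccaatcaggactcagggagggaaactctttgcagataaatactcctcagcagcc

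Each window was searched on both strands for 6 motifs. The Cxcl10 window held the interferon-stimulated response element (GAAA, any 2 bases, then GAAA; matched as GAAAGTGAAA) at 213 to 204 bases before the start site. It held the NF-κB motif (searched by name) at 159 to 150 bases and as a pair of overlapping matches at 104 to 95 and 103 to 94, and the AP-1 motif TGANTCA at 74 to 68. The Cxcl9 window held only TATAAA, at 195 to 190. Neither window held the GAS motif TTCNNNGAA or the wider-spaced STAT6-type motif (TTC, any 4 bases, then GAA), and the Cxcl10 window held no TATAAA. Of 32851 promoter windows of this length, 2.98% held the response element, 7.25% the NF-κB motif, 6.75% the AP-1 motif, 12.4% TATAAA, 7.02% the GAS motif and 5.85% the STAT6-type motif. Letter matches describe the sequence only.

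IFN-γ raised RNA of all 3 ligand genes within 2 h and further by 4 h. In bulk samples more RNA per cell and more cells expressing a gene cannot be told apart. Cxcl9, also known as MIG, stood at 3.77, 1.80 and 1.53 CPM in untreated replicates 1, 2 and 3. Under IFN-γ it stood at 936, 339 and 853 CPM at 2 h and at 9099, 1450.0 and 5829 CPM at 4 h. Every IFN-γ library lay above every untreated one, and replicate 2 was the lowest at both times. Group means were 299.8-fold higher than untreated at 2 h and 2307-fold higher at 4 h.

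Cxcl10, also known as IP-10, was the member with the highest resting level: 32.8, 20.3 and 13.6 CPM in the untreated libraries. It reached 3284, 2615 and 2862 CPM after 2 h of IFN-γ and 10401, 3956 and 8633 CPM after 4 h. Groups did not overlap, and replicate 2 was again the lowest under IFN-γ. Means rose 131-fold and 345-fold over untreated. At 2 h the replicates of Cxcl10 were close (2921 ± 338 CPM, SD, n = 3), whereas those of Cxcl9 were spread (709.5 ± 323 CPM).

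Cxcl11, also known as I-TAC, was close to absent at rest, at 0.136, 0.180 and 0.0805 CPM, which are 5, 3 and 6 reads. It stood at 8.66, 5.38 and 8.19 CPM after 2 h of IFN-γ and at 111, 33.3 and 89.4 CPM after 4 h, the last from 4019, 1553 and 3305 reads. Again the groups did not overlap and replicate 2 was the lowest at both times under IFN-γ. The mean was 56.1-fold above untreated at 2 h and 589-fold above at 4 h, folds that rest on 14 untreated reads in all.

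**Figure D1:**
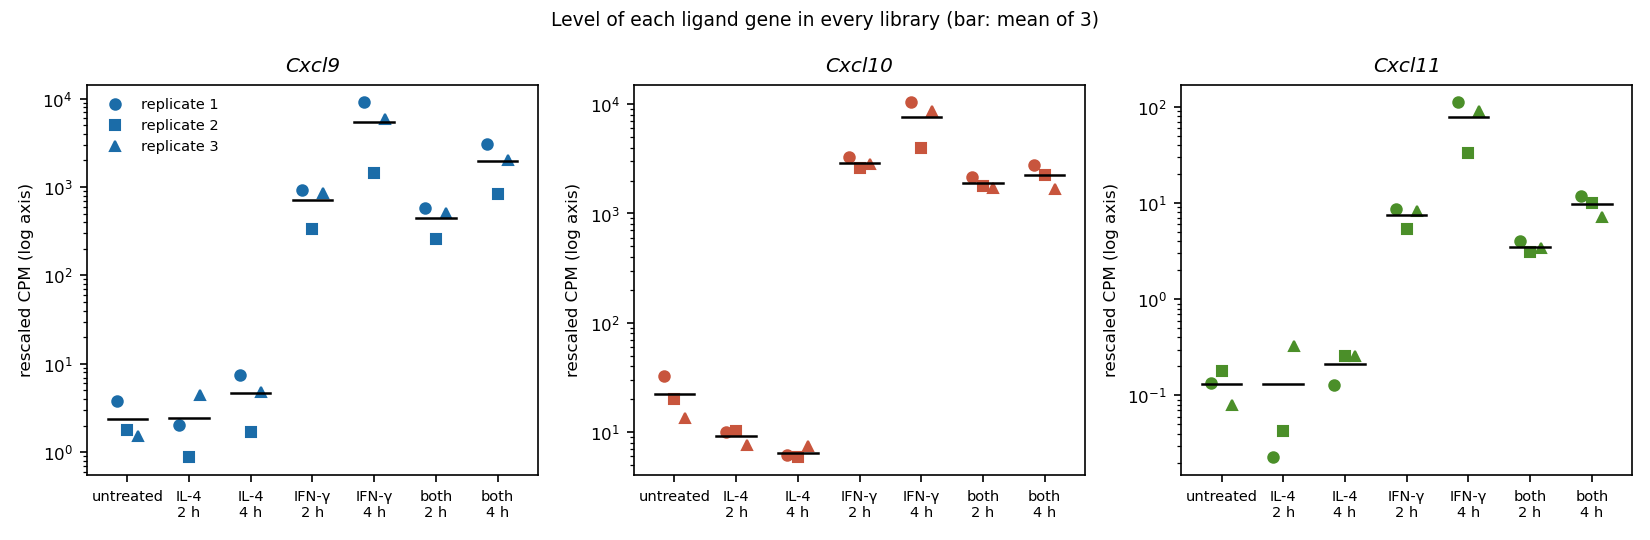
Rescaled CPM of Cxcl9, Cxcl10 and Cxcl11 (1 panel each, log axis) in the 21 libraries, by group; circles, squares and triangles are replicates 1, 2 and 3 and bars are means of 3. The 12 libraries with IFN-γ lie above the 9 without it for each gene, and at 4 h the libraries with both cytokines have lower means than those with IFN-γ alone.

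All 3 members were called higher (limma, adjusted p under 0.05) at both times, against 10.8% of the 11380 tested genes called higher at 2 h and 21.3% at 4 h. Changes are on the scale log2(CPM + 1), with standard errors. Cxcl9 rose by 7.65 ± 0.66 at 2 h (adjusted p = 3.3e-07) and 10.36 ± 0.66 at 4 h (4.0e-09), rank 1 of all tested genes at both times. Cxcl10 rose by 7.05 ± 0.31 (1.9e-10) and 8.34 ± 0.31 (6.3e-12), ranks 2 and 5. Cxcl11 rose by 2.87 ± 0.31 (3.2e-06) and 5.96 ± 0.31 (3.6e-10), ranks 69 and 19. For Cxcl11 this scale understates the change, because the untreated level lies below the added 1 CPM. With edgeR on the recovered reads its rise was 5.97 and 9.32 on the log2 scale. Cxcl11 passed the filter of 1 CPM in 3 libraries only through the 12 libraries with IFN-γ, while Cxcl9 and Cxcl10 passed it in all 21. Calls of Cxcl11 against groups without IFN-γ, here and below, are therefore a description and do not support the counts.

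All 3 genes rose further between 2 h and 4 h of IFN-γ. The mean of Cxcl11 grew 10.5-fold (log2 3.09 ± 0.31, adjusted p = 4.3e-06), that of Cxcl9 7.69-fold (2.71 ± 0.66, 0.009) and that of Cxcl10 2.62-fold (1.28 ± 0.31, 0.0086). All were higher at 4 h in 3 of 3 replicate numbers without overlap, and 9.89% of tested genes were called higher in this comparison. Leaving out replicate 1 of every group ended the calls of Cxcl9 and Cxcl10 (adjusted p = 0.12 and 0.092), as did leaving out replicate 3 of every group (0.19 and 0.17) or IFN-γ 4 h replicate 1 (0.059 and 0.058).

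IL-4 alone lowered Cxcl10 and gave no call for the other members. Cxcl10 stood at 9.98, 10.2 and 7.69 CPM after 2 h and at 6.16, 5.89 and 7.46 CPM after 4 h. All 6 libraries lay below the lowest untreated one (13.6 CPM). The means were 41.8% and 29.3% of untreated. The fall was called at 2 h (-1.10 ± 0.31, adjusted p = 0.036; 3.11% of tested genes were called lower) and at 4 h (-1.55 ± 0.31, 0.0015; 10.1% called lower), in 3 of 3 replicate numbers each. The 2 h call was lost in the CPM as deposited (-0.70, adjusted p = 0.11) and in 8 of 9 fits that left out a replicate number or a library, with adjusted p up to 0.29. Those were replicates 1, 2 and 3 in all groups, untreated replicates 1 and 2, and each IL-4 2 h library. The 4 h call was kept in all 9 such fits (adjusted p up to 0.045).

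Cxcl9 under IL-4 stood at 2.01, 0.877 and 4.41 CPM at 2 h and at 7.47, 1.69 and 4.82 CPM at 4 h, overlapping the untreated libraries both times. Its changes were -0.05 ± 0.66 (adjusted p = 1; 95% interval -1.47 to 1.38) and 0.66 ± 0.66 (0.56; -0.77 to 2.08). Cxcl11 had 17 reads in all under IL-4 at 2 h and 35 at 4 h, so a change of this gene by IL-4 alone was not detectable at this depth. From 2 h to 4 h of IL-4 no member was called, with 2.81% of tested genes called.

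With IL-4 added to IFN-γ the mean levels of all 3 ligand genes were lower than with IFN-γ alone, and at 4 h 2 of them passed the test. At 2 h the combination gave 579, 255 and 514 CPM for Cxcl9, 2142, 1786 and 1717 CPM for Cxcl10, and 3.98, 3.10 and 3.37 CPM for Cxcl11. The means were 63.3%, 64.4% and 47.0% of those under IFN-γ alone, lower in 3 of 3 replicate numbers for each gene. Libraries with the combination and with IFN-γ alone overlapped for Cxcl9 and did not overlap for Cxcl10 and Cxcl11. None was called, against 3.01% of tested genes: -0.61 ± 0.66 for Cxcl9 (adjusted p = 1; 95% interval -2.04 to 0.81), -0.63 ± 0.31 for Cxcl10 (0.59; -1.30 to 0.04) and -0.89 ± 0.31 for Cxcl11 (0.19; -1.55 to -0.23). With the replicate number as a block, Cxcl11 was called lower at 2 h (adjusted p = 0.044), and so it was without replicate 2 in all groups (0.023).

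At 4 h the means lay further apart. Cxcl9 stood at 3099.5, 833 and 1999 CPM under the combination, which is 36.2% of IFN-γ alone. The combination was lower in every replicate number, at 34.1%, 57.4% and 34.3%, yet the groups overlapped because replicate 2 was low in both. The change of -1.30 ± 0.66 was not called (adjusted p = 0.27; 95% interval -2.72 to 0.13), but was when the replicate number was fitted as a block (-1.30 ± 0.32, adjusted p = 0.0043). It was also called without replicate 2 in all groups (-1.55, 0.017) and without IFN-γ 4 h replicate 2 (-2.07, 0.037).

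Cxcl10 stood at 2771, 2229 and 1684 CPM under the combination at 4 h, below every library of IFN-γ alone. Its mean was 3.44-fold lower (29.1%), and per replicate number the combination gave 26.6%, 56.4% and 19.5%. The change was -1.70 ± 0.31 (adjusted p = 0.0013), and the call was lost without replicate 3 in all groups (-1.37, 0.12). Cxcl11 stood at 11.9, 9.95 and 7.22 CPM, 8.03-fold lower (12.5%) and likewise without overlap. Its change was the lowest of the 3 members, -2.74 ± 0.31 (adjusted p = 1.2e-05), with 10.7%, 29.9% and 8.08% by replicate number. In this comparison 5.98% of tested genes were called lower, and 2 of the 3 members.

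**Figure D2:**
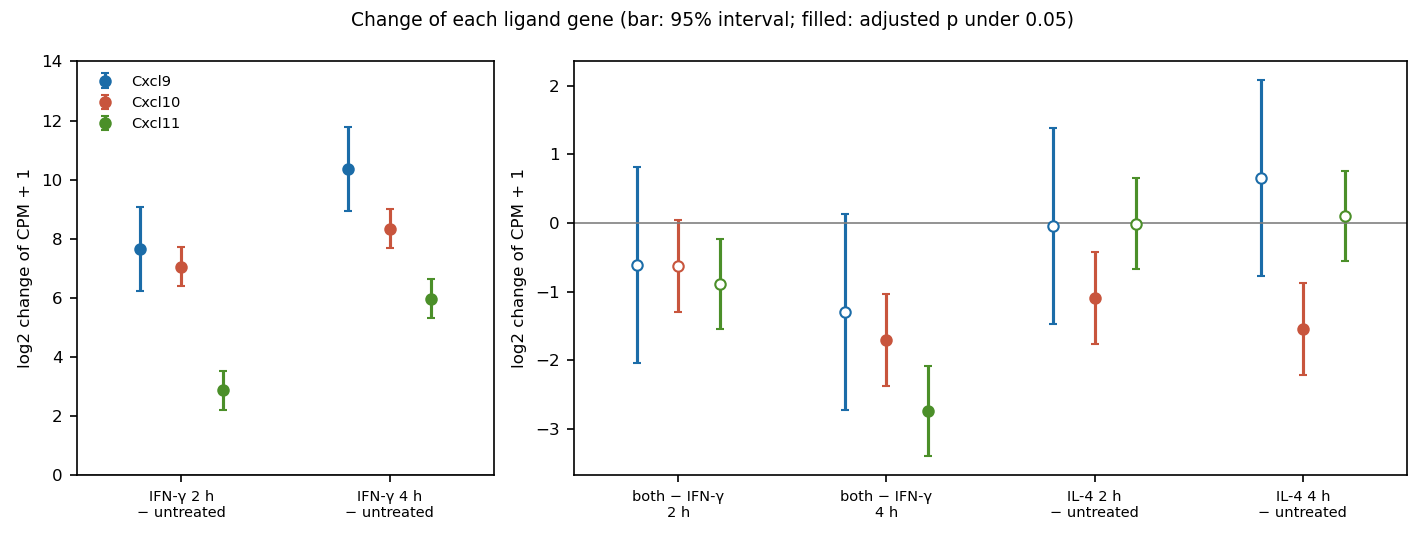
Log2 change of CPM + 1 for Cxcl9, Cxcl10 and Cxcl11 in 6 comparisons; points are limma estimates, bars 95% intervals and filled points have an adjusted p under 0.05. The left panel shows the rises with IFN-γ; in the right panel the filled points are Cxcl10 and Cxcl11 for both cytokines against IFN-γ at 4 h and Cxcl10 for IL-4 against untreated at both times.

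All 3 genes nevertheless stayed far above untreated under the combination. Means at 4 h were 835-fold (Cxcl9), 100.3-fold (Cxcl10) and 73.4-fold (Cxcl11) above untreated, with changes of 9.06 ± 0.66, 6.64 ± 0.31 and 3.22 ± 0.31 (adjusted p = 1.3e-08, 9.1e-11 and 2.8e-07). At 2 h the changes were 7.04, 6.42 and 1.98 (5.5e-07, 3.8e-10 and 1.2e-04). Among tested genes 12.8% were called higher at 2 h and 22.8% at 4 h. Set against IL-4 alone, the combination raised all 3 as well, by 7.08, 7.52 and 1.99 at 2 h and by 8.40, 8.19 and 3.11 at 4 h, where 8.68% and 15.7% of tested genes were called higher.

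Between 2 h and 4 h of the combination, Cxcl10 had nearly the same mean (1882 ± 228 and 2228 ± 543 CPM, SD, n = 3). It was higher at 4 h in 2 of 3 replicate numbers, with a change of 0.22 ± 0.31 (adjusted p = 0.7; 95% interval -0.45 to 0.89). Cxcl9 rose 4.40-fold (2.03 ± 0.66, adjusted p = 0.043) and Cxcl11 2.78-fold (1.23 ± 0.31, 0.0096), each in 3 of 3 replicate numbers, and 9.41% of tested genes were called higher. The call of Cxcl9 was lost in 7 of 9 fits without a replicate number or library: replicates 1 (adjusted p = 0.21) and 3 (0.31) in all groups, each library of the combination at 2 h (0.06 to 0.14), and replicates 1 (0.17) and 3 (0.11) of the combination at 4 h. That of Cxcl11 was lost without replicates 1 (0.1) and 3 (0.12) in all groups.

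The gap between the combination and IFN-γ alone was tested for a change from 2 h to 4 h. Its change was -1.85 ± 0.43 for Cxcl11 (adjusted p = 0.089; 0.0065 with the block), and 0.360% of tested genes were called. Without replicate 2 in all groups it was called (-2.27, adjusted p = 0.0062), as it was without IFN-γ 4 h replicate 2 (-2.37, 2.1e-04). For Cxcl10 it was -1.06 ± 0.44 (0.58, and 0.087 with the block) and for Cxcl9 -0.69 ± 0.94 (1, and 0.44 with the block).

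A further test asked whether the change under both cytokines differed from the sum of the changes under each alone. At 4 h it did for Cxcl11, by -2.84 ± 0.43 (adjusted p = 0.002), where 0.967% of tested genes were called lower. Untreated and IL-4 levels of Cxcl11 lie below the added 1 CPM, so this value is close to the gap against IFN-γ alone. The call was lost without replicate 1 (-2.71, adjusted p = 0.12) or replicate 3 (-2.42, 0.39) in all groups. For Cxcl9 the value was -1.96 ± 0.94 (0.45), which was called with the block (0.0074) and without replicate 2 in all groups (-2.56, 0.026). For Cxcl10, which IL-4 lowered with and without IFN-γ, it was -0.15 ± 0.44 (0.99; 95% interval -1.09 to 0.80). No member was called at 2 h (adjusted p = 1 for each), and 0.369% of tested genes were.

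Ordered by mean, Cxcl9 and Cxcl11 ran from untreated and IL-4 at the bottom through the combination at 2 h, IFN-γ at 2 h and the combination at 4 h to IFN-γ at 4 h. Cxcl10 ran from IL-4 at 4 h and 2 h through untreated, the combination at 2 h and at 4 h and IFN-γ at 2 h to IFN-γ at 4 h. Libraries of the combination at 4 h and of IFN-γ at 2 h overlapped for all 3 genes. Those of the combination at 2 h and IFN-γ at 2 h, and of the combination and IFN-γ at 4 h, overlapped for Cxcl9, as did both times of the combination for Cxcl10.

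Levels of the 3 genes were compared per kb of annotated exon (3016 bases for Cxcl9, 2252 for Cxcl10 and 3794 for Cxcl11). Cxcl10 was the most abundant in each group mean: 9.86 CPM per kb in untreated cells and 3403 under IFN-γ for 4 h, against 0.785 and 1810.2 for Cxcl9 and 0.0348 and 20.5 for Cxcl11. The annotated exons of Cxcl10 include a retained intron. With the longest spliced transcript as its length (1353 bases), an alternative chosen after seeing the data, Cxcl10 exceeded Cxcl9 by 3.56-fold under IFN-γ at 4 h instead of 2.23-fold (geometric means). Differences of a ratio between groups do not depend on the length.

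Within a library, the ratio of Cxcl9 to Cxcl10 per length was 0.166 after 2 h of IFN-γ and 0.448 after 4 h (geometric means), a log2 difference of 1.43 ± 0.54. The difference from 2 h to 4 h was 1.81 ± 0.64 under the combination. With IL-4 added to IFN-γ the ratio differed by 0.02 ± 0.51 at 2 h (exact two-sided permutation p = 0.90) and by 0.40 ± 0.66 at 4 h (p = 0.50), with overlapping groups. By replicate number it was higher with IL-4 in 2 of 3 at 2 h and in 3 of 3 at 4 h, by 0.35, 0.03 and 0.81. The permutation test takes no account of the replicate numbers, and such a p does not show that the ratio was kept.

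The ratio of Cxcl11 to Cxcl10 was lower under the combination in 3 of 3 replicate numbers at both times. At 4 h its log2 value was -7.31, -7.64 and -7.35 in the IFN-γ libraries at 4 h and -8.62, -8.56 and -8.62 in those with both cytokines. The groups did not overlap, and the difference was -1.17 ± 0.11. At 2 h it was -0.43 ± 0.15, also without overlap. The ratio of Cxcl11 to Cxcl9 was lower by 1.56 ± 0.62 at 4 h, in 3 of 3 replicate numbers and without overlap. The exact two-sided permutation p was 0.10 in each of these 3 comparisons, the smallest that 3 against 3 libraries allow. Of the 12 ratio comparisons made none had an adjusted p below 0.17.

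**Figure D3:**
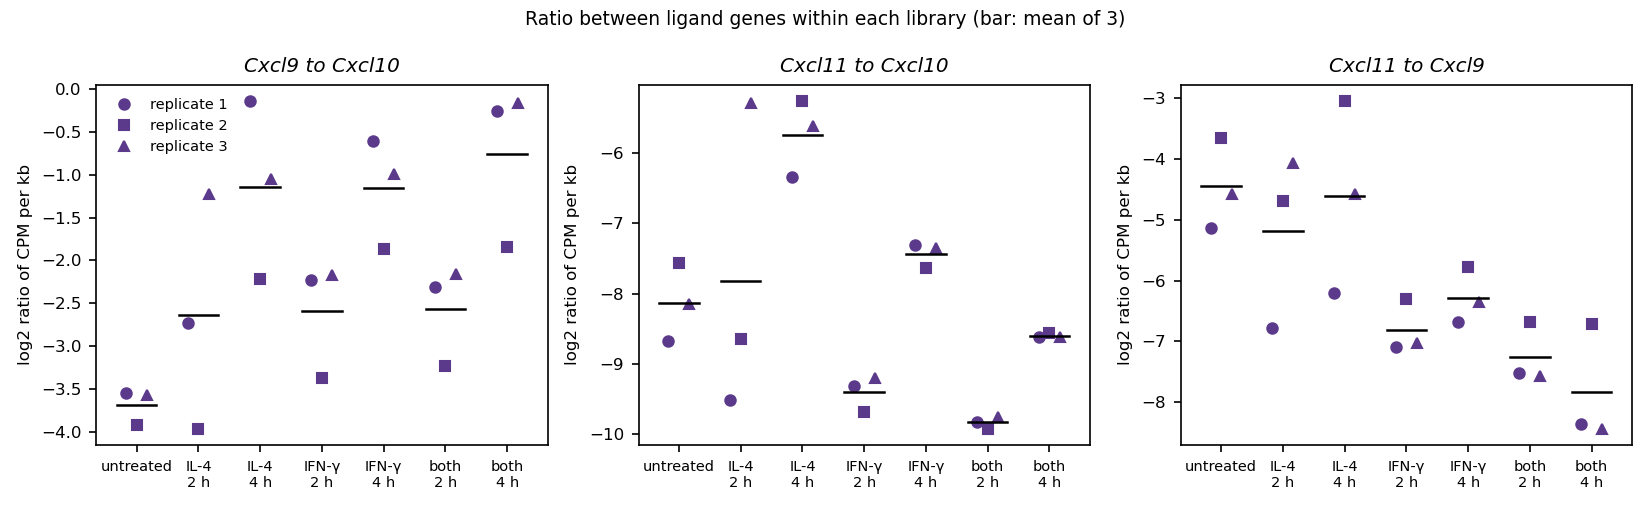
Log2 ratio of CPM per kb between each pair of ligand genes within each library, by group; circles, squares and triangles are replicates 1, 2 and 3 and bars are means of 3. The ratio of Cxcl11 to Cxcl10 falls in a narrow band at 4 h, near -7.43 under IFN-γ and near -8.60 under both cytokines, while ratios without IFN-γ rest on few Cxcl11 reads and scatter.

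Most of the genes listed for the IFN-γ signal, which include receptor chains and inhibitors as well as signal carriers, were induced. Of 16 listed and tested genes 10 rose and 1 fell at 2 h, where 10.8% of all tested genes were called higher and 7.10% lower, and 11 rose at 4 h, where 21.3% were called higher (median log2 1.73; 0.00 over all tested genes). Those called higher at 2 h included the inhibitor Socs1 (5.69 ± 0.22, adjusted p = 3.5e-11). The 1 that fell was the receptor chain Ifngr2 (-1.01 ± 0.27, 0.012). Irf1, a transcription factor made in response to IFN-γ, rose by 4.92 ± 0.28 at 4 h (adjusted p = 9.7e-10), and Irf8, a factor of the same family, by 2.94 ± 0.27 (2.4e-07). Adding IL-4 at 4 h raised Socs1, a feedback inhibitor of JAK kinases, by 1.16 ± 0.22 (0.0014), lowered Ptpn6, a phosphatase, by 0.57 ± 0.13 (0.0068), and gave no call for the other 14. These 2 of 16 are a share near that of all tested genes called in either direction, 11.9% (5.90% higher). Irf1 changed by -0.22 ± 0.28 (0.77) and Irf8 by -0.45 ± 0.27 (0.37). With the replicate number as a block 3 were called higher and 7 lower, against 1575 higher and 2135 lower of the 11380 tested genes (32.6%). Among the 7 lower was Irf8 (adjusted p = 0.0012 with the block), while Irf1 was not called (0.13).

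NF-κB subunits, their inhibitors and cytokines that activate NF-κB rose mostly at 4 h. Of 13 listed and tested, 2 rose with IFN-γ at 2 h, Tnf by 2.40 ± 0.55 (adjusted p = 0.0049) and Bcl3 by 1.66 ± 0.47 (0.018). At 2 h 10.8% of all tested genes were called higher. At 4 h 12 rose (median 1.90), where 21.3% of all tested genes were called higher. Adding IL-4 at that time lowered 7 of 13, where 5.98% were called lower (median -1.06; -0.03 over all tested genes). Those were Tnf (-4.21 ± 0.55, adjusted p = 5.8e-05), Nfkbiz (-3.89 ± 0.43, 9.5e-06), Nfkbia (-2.31 ± 0.49, 0.0041), Nfkbie (-2.25 ± 0.60, 0.018), Il1b (-2.11 ± 0.51, 0.01), Rela (-1.06 ± 0.29, 0.02) and Nfkbib (-0.65 ± 0.20, 0.041). Nfkbiz, Nfkbia, Nfkbie and Nfkbib encode proteins of the inhibitor family, several of which NF-κB itself induces, and Rela encodes a subunit. Tnf stood at 1000.5, 243 and 954 CPM under IFN-γ at 4 h, and 57.2, 20.5 and 28.2 CPM under both, with replicate 2 the lowest in each group. Il1b had low values and would not have passed the filter without the libraries that had IFN-γ, so its calls do not support the counts. The block gave 1 call higher and 11 lower, beside the 1575 and 2135 calls over all tested genes. At 2 h, IL-4 added to IFN-γ lowered 2 of 13, Tnf (-2.17 ± 0.55, adjusted p = 0.042) and Nfkbiz (-1.72 ± 0.43, 0.035). It raised 1, Rel (2.01 ± 0.31, 8.8e-04), where 3.01% of all tested genes were called in either direction. IL-4 alone for 2 h also lowered Tnf (-2.13 ± 0.55, 0.021) and Nfkbiz (-2.85 ± 0.43, 2.5e-04) and raised Rel (1.52 ± 0.31, 0.0037), where 8.62% were called.

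**Figure D4:**
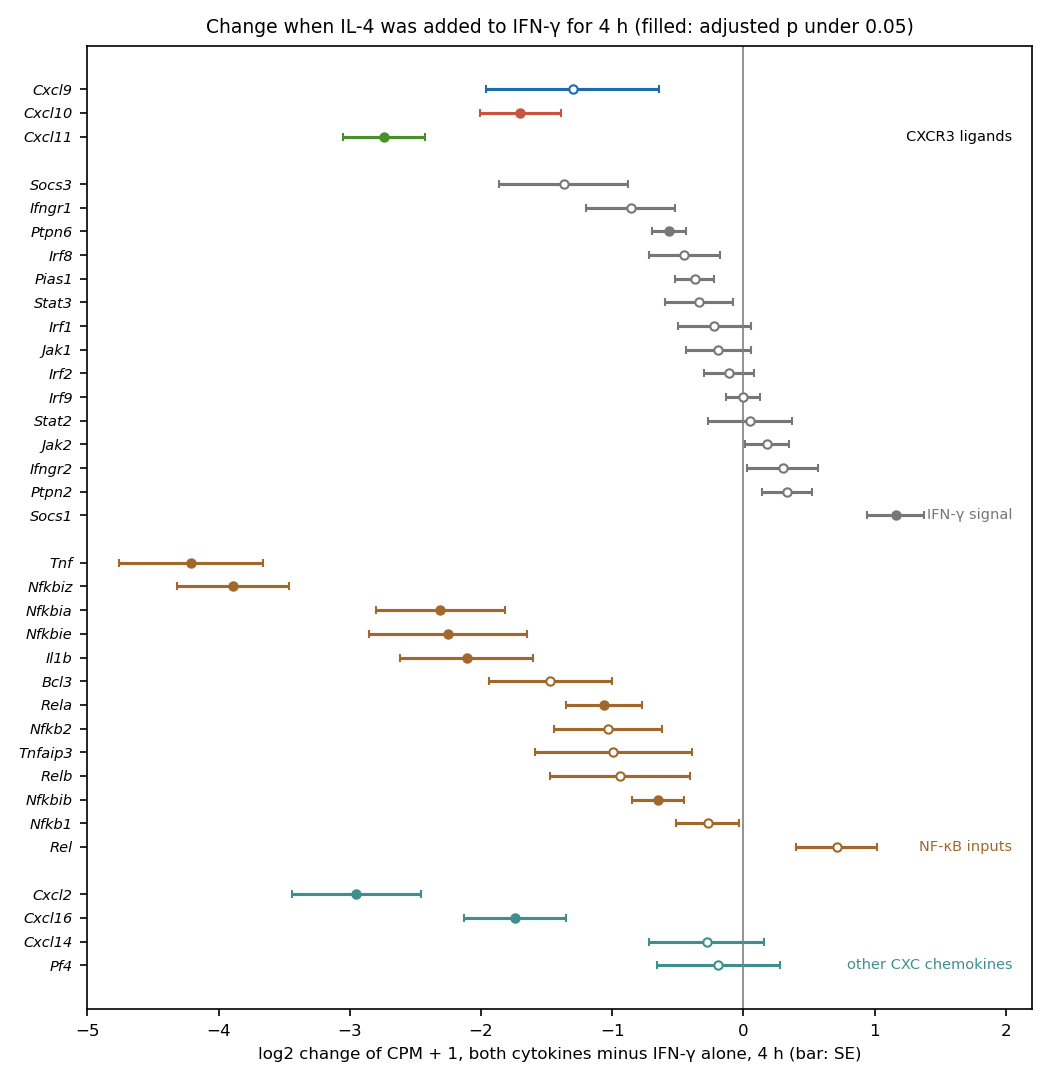
Log2 change of CPM + 1, both cytokines minus IFN-γ alone at 4 h, for the 3 ligand genes and the tested members of 3 lists, apart from an IFN-γ signal gene not reported here; points are limma estimates, bars standard errors and filled points have an adjusted p under 0.05. Among the IFN-γ signal genes shown only Socs1 and Ptpn6 are filled; 7 of the 13 NF-κB genes and 2 of the 4 other CXC chemokines are filled and lower.

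Of the 6 genes of the IL-4 pathway, adding IL-4 at 4 h raised Irf4, a transcription factor of the IL-4 response (4.75 ± 0.31, adjusted p = 3.1e-08) and Il4ra, its receptor chain (0.90 ± 0.25, 0.025), and lowered Il13ra1 (-1.64 ± 0.18, 1.2e-05), where 5.90% of all tested genes were called higher and 5.98% lower. Among type I interferon genes, which can also feed the ligand genes, Irf7 rose with IFN-γ at 4 h (2.01 ± 0.43, 0.0013) and Tyk2 by 0.54 ± 0.16 (0.015), where 21.3% of all tested genes were called higher. None of the 5 tested was called when IL-4 was added to IFN-γ at 2 h or 4 h. Of all tested genes 3.01% and 11.9% were called in these comparisons. With the replicate number as a block, Irf7 was called higher at 4 h (0.83, adjusted p = 9.3e-04) and Ifnar1 lower (-0.32, 0.0034). The block called 32.6% of all tested genes there. Ifnb1, encoding interferon β, was too low to test. It had 154 reads in the 3 libraries of IFN-γ for 4 h (1.32 ± 0.541 CPM, SD) and 5 reads with both cytokines (0.0381 ± 0.0167 CPM). Of the 7 genes listed for mRNA decay, 3 rose under IFN-γ at 4 h (21.3% of all tested genes did), among them Zfp36 by 3.41 ± 0.32 (2.9e-07). Zfp36 encodes a protein that binds AU-rich elements of cytokine transcripts, whereas Tnip1 and Tnip2 on this list act on NF-κB signals and are not decay factors. Adding IL-4 lowered 2 of 7 (5.98% of all tested genes), Zfp36 by 1.44 ± 0.32 (0.0053) and Tnip1 by 1.62 ± 0.24 (2.1e-04).

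Of 12 other chemokines of the CXC family 4 were tested. IFN-γ at 4 h raised 1 of them and IL-4 added to it lowered 2, where 21.3% of all tested genes were called higher and 5.98% lower. Cxcl2, a neutrophil attractant, rose with IFN-γ at 4 h (2.12 ± 0.49, adjusted p = 0.0024) and was lower with IL-4 added (-2.95 ± 0.49, 5.4e-04). Its values were low, at 3.34, 0.419 and 0.618 CPM in untreated replicates 1, 2 and 3. Without the 3 libraries of IFN-γ for 4 h it would not have passed the filter. Its calls are therefore a description and do not support the count. Cxcl16, a membrane-bound ligand of CXCR6, did not pass at 4 h of IFN-γ (0.80 ± 0.39, 0.12) and was lower with IL-4 added (-1.74 ± 0.39, 0.0059). Cxcl14 and Pf4 were called in neither comparison.

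Cxcr3, the receptor of the 3 ligands, was expressed at a low level and fell with IFN-γ. It stood at 5.24, 4.49 and 4.90 CPM in untreated libraries, 3.26, 2.76 and 2.95 after 2 h of IFN-γ and 0.963, 1.72 and 0.892 after 4 h, without overlap. The changes were -0.56 ± 0.16 (adjusted p = 0.019) and -1.44 ± 0.16 (1.9e-06), where 7.10% and 17.8% of tested genes were called lower. Adding IL-4 at 4 h gave no call (0.26 ± 0.16, 0.4). Of the 9 genes listed for receptors and ligand handling 4 were tested; Dpp4, the peptidase that trims these chemokines, was not, at group means of 0.314 to 1.04 CPM.

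Neighbouring genes of the locus that were tested had smaller changes of log2(CPM + 1) than the ligand genes. Of 13 listed, 9 were tested; 7 rose with IFN-γ at 4 h, where 21.3% of all tested genes were called higher. Among them were Naaa, an acid amidase (2.13 ± 0.31, adjusted p = 3.5e-05), and Sdad1, a nucleolar protein gene (1.52 ± 0.16, 1.5e-06). G3bp2, Stbd1, Ppef2, Nup54 and Uso1 rose by 0.50 to 0.89. Stbd1 and Ppef2 had low values and would not have passed the filter without the libraries with IFN-γ, so their calls do not support the count. The added 1 CPM compresses changes of low genes: Ppef2 went from 0.0449 CPM in untreated cells to 0.869 CPM at 4 h (8 and 98 reads in 3 libraries each), a 19.3-fold ratio of means, against 4.72-fold for Naaa. None of the 9 was called for both cytokines against IFN-γ at 4 h, where 11.9% of tested genes were. The block called 2 higher and 1 lower, where it called 32.6% of all tested genes.

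**Figure D5:**
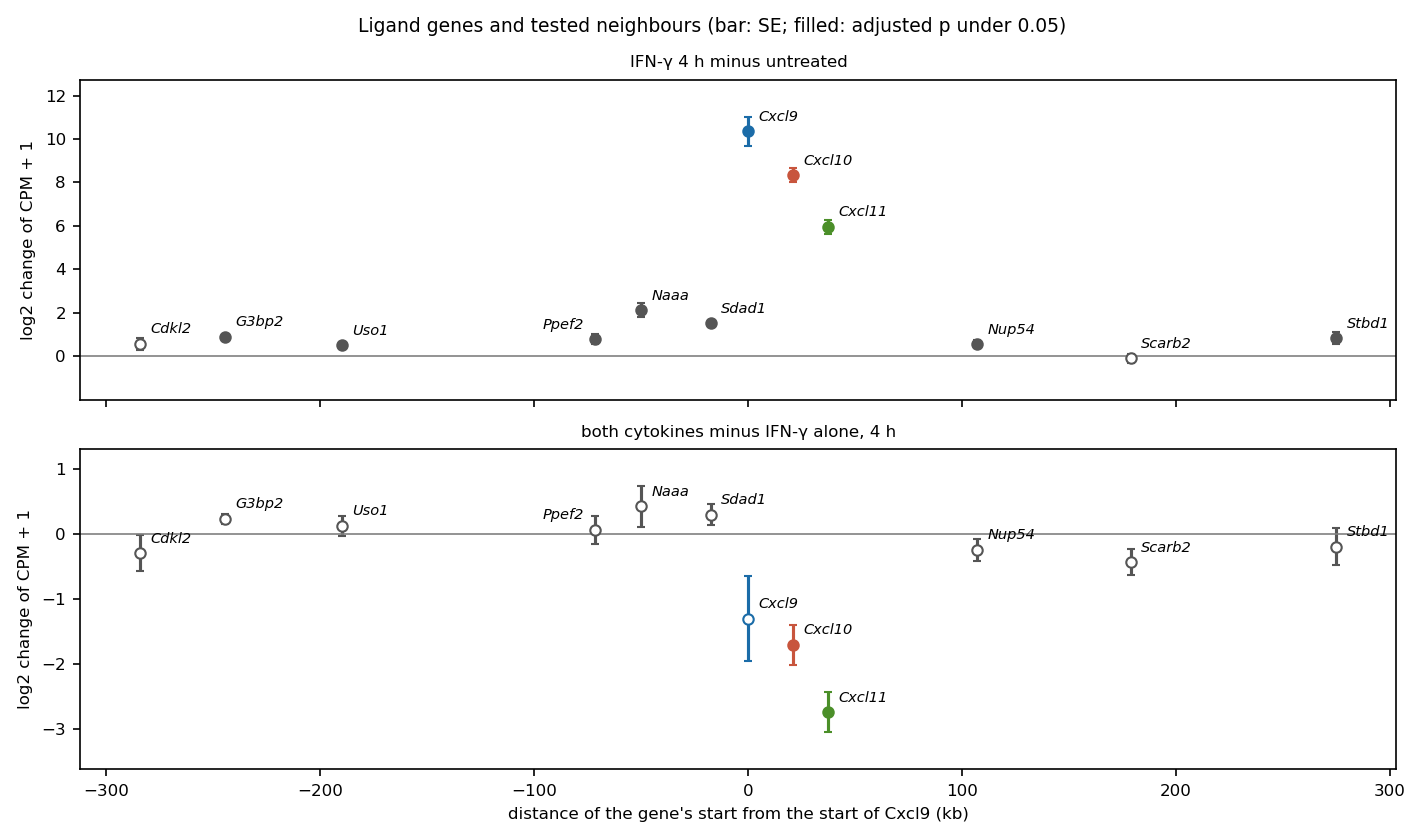
Log2 change of CPM + 1 for the ligand genes and 9 tested neighbours against the distance of each gene's start from that of Cxcl9 (kb); top, IFN-γ at 4 h minus untreated; bottom, both cytokines minus IFN-γ at 4 h. Bars are standard errors and filled points have an adjusted p under 0.05; the ligand genes stand above their neighbours in the top panel and below them in the bottom one.

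Across the 21 libraries the log2 values of Cxcl9 and Cxcl10 correlated at Pearson r = 0.970, Cxcl9 and Cxcl11 at 0.926 and Cxcl10 and Cxcl11 at 0.892. These values describe libraries of which 12 had IFN-γ, so that genes induced by IFN-γ correlate in general. The genes most like Cxcl9 were Gbp3, Gbp5, Gbp2, Batf2 and Themis2 (r = 0.989 to 0.991), 3 of them guanylate-binding proteins, whose reads may be shared with close relatives. Those most like Cxcl10 were Myd88, the adaptor of Toll-like receptors, Zfp281, Zufsp, Rap2c and Golga3 (0.986 to 0.991). Those most like Cxcl11 were Katna1, Il27, a cytokine subunit, Gca, Skap2 and Ppp1r15b (0.969 to 0.974).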

How the data were processed

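The deposited table gives CPM per gene; per the submitters' processing notes the authors used TopHat2 2.1.0, HTSeq and edgeR with mm10 (GRCm38), in roles and with settings not given in the sources used here. Taking each library's smallest value as 1 read, 100% of values were whole reads within 0.01 read.

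CPM were rescaled by median-ratio factors. The 11380 genes that reached 1 CPM in 3 or more libraries were fitted as log2(CPM + 1) in limma 3.58.1 (R 4.3.3), with a mean for each of the 7 groups, trended empirical Bayes and 14 residual degrees of freedom. P-values were Benjamini-Hochberg adjusted within each of 16 comparisons; a call is an adjusted p under 0.05. With edgeR 4.0.16 (quasi-likelihood test) on the recovered reads, 1383 genes were called for both cytokines against IFN-γ at 4 h and 1351 with limma.

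Same-numbered libraries deviated together from their group means (63 pairs, r 0.539 to 0.951; other pairs at most 0.369), so the number was also fitted as a block; the labels give its origin no name. No 2 libraries held identical values. Within-library ratios used exact permutation tests. Named are the members, called or relevant members of the lists, and the 5 genes most correlated with each member. An item of the lists is counted but not reported here. Members and lists were chosen with earlier results of these data known. Tried as alternatives were other scalings, pseudocounts, filters, lengths, and left-out libraries.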

Additional observations from a re-analysis of the deposited data

Results flagged for a closer look

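The response to IFN-γ differed between 2 h and 4 h for all 3 ligand genes: the level at 4 h was higher by 2.71 for Cxcl9, 1.28 for Cxcl10 and 3.09 for Cxcl11 on the log2(CPM + 1) scale, a difference that limma called for each. Under both cytokines, 4 h was likewise higher than 2 h for Cxcl9 (2.03) and Cxcl11 (1.23). At 4 h the change of Cxcl11 under both cytokines differed from the sum of the single changes by -2.84. Untreated and IL-4 levels of Cxcl11 lie below the added 1 CPM, so this value mostly restates the gap against IFN-γ alone. Its call was lost without replicate 1 or replicate 3 in all groups. Of the time differences, only that of Cxcl11 under IFN-γ kept its call in every fit that left out a replicate number or a library.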

How the results depend on the processing

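Of the 48 member changes (3 genes in 16 comparisons), none changed call or direction with TMM factors, with Rn45s and Lars2 left out of the total, or with a filter of 5 CPM. In the CPM as deposited, 2 small IL-4 changes at 2 h turned sign (Cxcl9 0.21, Cxcl11 0.04), and the calls of Cxcl10 for IL-4 at 2 h (-0.70) and of Cxcl9 for 4 h against 2 h of both cytokines (1.91, adjusted p = 0.056) were lost. The latter was also lost with a pseudocount of 0.1 (2.03, 0.066) and with no filter (2.03, 0.072), and so was Cxcl10 for IL-4 at 2 h with no filter (-1.10, 0.057). The replicate block added 4 calls: Cxcl11 at -0.89 for both cytokines against IFN-γ at 2 h, Cxcl9 at -1.30 for the same at 4 h, Cxcl9 at -1.96 for the departure from the sum at 4 h, and Cxcl11 at -1.85 for the widening of the gap; it changed no other call of a member. With edgeR, 3 changes near 0 turned sign (IL-4 at 2 h: Cxcl9 0.02, Cxcl11 0.14; departure from the sum at 4 h: Cxcl10 0.01). With untreated replicate 1 as the lone untreated library, chosen after seeing the data and assuming that it varies like the other groups, only the last of these turned sign (0.48) and all calls held. The cause of these changes was not tested.

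Leaving out a replicate number or a library changed a call or sign in some of the 9 fits for each of these: 4 h against 2 h of IFN-γ, Cxcl9 2.17 to 3.49 and Cxcl10 1.01 to 1.70; the same under both cytokines, Cxcl9 1.61 to 2.55 and Cxcl11 1.09 to 1.41; IL-4 at 2 h, Cxcl9 -0.62 to 0.32, Cxcl10 -1.39 to -0.78 and Cxcl11 -0.16 to 0.07. For both cytokines against IFN-γ the ranges were -1.08 to -0.78 (Cxcl11, 2 h), -2.07 to -0.75 (Cxcl9, 4 h) and -2.13 to -1.37 (Cxcl10, 4 h). The widening of that gap, which had 15 such fits, ran from -2.37 to -1.52 (Cxcl11). The departure from the sum also had 15 such fits. Its ranges were -1.03 to 0.07 (Cxcl9, 2 h), -2.73 to -1.41 (Cxcl9, 4 h), -0.62 to 0.57 (Cxcl10, 4 h) and -3.39 to -2.42 (Cxcl11, 4 h). The difference in log2 ratio of Cxcl9 to Cxcl10 between both cytokines and IFN-γ at 2 h ran from -0.04 to 0.07.

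Counts of called genes over the whole table moved by more than 1.5 times in 16 of 16 comparisons with the block, 10 as deposited, 8 with untreated replicate 1 alone, and 1 each with edgeR and a pseudocount of 0.1. Leaving out a replicate number or a library moved 59 of 162 such counts by as much. For both cytokines against IFN-γ at 4 h the count of 1351 became 596 without replicate 1, 1980 without replicate 2 and 357 without replicate 3. For the departure from the sum at 4 h it went from 194 to 402 without the library of replicate 2 under IFN-γ for 4 h, and to 38, 487 and 21 without replicates 1, 2 and 3. For both cytokines against IFN-γ at 4 h, 671 genes were called higher and 680 lower, against 447 and 251 in the CPM as deposited and 1575 and 2135 with the block. For IFN-γ against untreated, 1227 and 808 genes at 2 h became 1598 and 184 as deposited, where the median change was 0.27, and 2427 and 2029 at 4 h became 2014 and 869. For IL-4 at 2 h, 627 and 354 became 1833 and 70 (median 0.39), and at 4 h 1366 and 1149 became 3880 and 290 (median 0.43). With untreated replicate 1 alone, the total called for IFN-γ fell from 2035 to 1110 at 2 h and from 4456 to 2752 at 4 h. Depth limits Cxcl11 without IFN-γ, which rests on 14, 17 and 35 reads per group.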
